A study of Oryza sativa with 36 samples.

Results

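Malate synthase (MS), isocitrate lyase (ICL) and a peroxygenase (PXG) were read across 12 groups of rice arrays as 3 probe sets, MS as Os.26687.1.S1_at, ICL as Os.22277.1.S1_at and PXG as Os.2694.1.S1_at, out of 57258 rice probe sets of the Affymetrix rice genome array. The 3 were chosen by their high levels in droughted leaves against control leaves on these arrays, so every leaf value of these genes is given here as a description without a test. The platform annotation pairs each of the 3 probe sets with 1 gene, which the reference table names, and none carries the array maker's mark for probe sets that may bind several transcripts.

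All plants were of DK151, a drought tolerant rice line bred from IR64 material, and were grown singly in tubes of baked clay in a greenhouse. For the drought groups the tubes were unplugged and left to run dry over days, and tissue was taken once relative water content in the leaf was between 65% and 75%. The paper reports fewer days until stress showed at booting than at tillering and panicle elongation. Booting and a shorter drought therefore cannot be told apart. Control plants stayed watered. Droughted and control leaves and roots were taken at tillering and at panicle elongation, and droughted and control leaves and young panicles at booting, with 3 arrays in each group, each from an individual plant. Other lines were not analysed here, so nothing separates DK151 from other rice.

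ICL and MS are the enzymes that set the glyoxylate cycle apart from the citrate cycle. ICL splits isocitrate into succinate and glyoxylate, and MS joins that glyoxylate to acetyl-CoA to give malate. Together they let carbon released from fatty acids by peroxisomal beta-oxidation be turned into sugar instead of carbon dioxide, which is best known from germinating oil-storing seeds and from ageing leaves. PXG belongs to the caleosins, calcium-binding proteins of lipid bodies that use fatty acid hydroperoxides to oxidise other lipids.

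The deposited values were intensities on a linear scale, and the median of all of them was 59.7 with a lowest quartile at 28.3. Array medians ran from 55 to 63.9. Each array correlated with the others of its group at a mean r of 0.944 to 0.992 across probe sets, the lowest being control leaves at panicle elongation, replicate 2. Root and young panicle markers were highest in the tissues labelled so, and leaf markers were not in every leaf group. The summed intensity of 6 root markers was 5873 to 19724 in roots and at most 2357 elsewhere, and that of 11 young panicle markers was 23326 to 27916 in young panicles and at most 5841 elsewhere. The 3 leaf markers on the array, a chlorophyll-binding protein and 2 small subunits of Rubisco, summed to 1245 to 2220 in droughted leaves at panicle elongation, against 25260 to 25463 in the control leaves, and 2 of the 3 stood above the median of all values in both groups. These droughted leaves thus held less of the leaf markers than the young panicles did (9118 to 14001). They also held less than a control root array at panicle elongation (7072) and a droughted root array at tillering (3390).

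MS had intensities of 1722, 2049 and 1397 in droughted leaves at tillering, against 40.3, 29.2 and 37.2 in control leaves. At panicle elongation it had 5048, 5179 and 4939 in droughted leaves, against 20.3, 30.5 and 27.8 in control leaves. At booting it had 4735, 2927 and 3887 in droughted leaves, against 49.6, 34.2 and 46.1 in control leaves. Every droughted leaf array therefore lay above every control leaf array, and the control leaves were in the dim part of the array, with 15.5% to 43.0% of all rice probe sets below MS. As fitted log2 changes, drought minus control, these were 5.59 in tillering leaves, 7.61 in panicle elongation leaves and 6.46 in booting leaves, each ± 0.29 (SE of the model, 3 arrays a side). In whole tissue, fewer cells of a type and less RNA per cell cannot be told apart.

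ICL had 257, 250 and 165 in droughted leaves at tillering, against 29.1, 23.6 and 19.1 in control leaves. At panicle elongation it had 3792, 4151 and 4358 in droughted leaves, against 23.5, 30.4 and 28.9 in control leaves. At booting it had 2684, 692 and 1758 in droughted leaves, against 35.6, 23.5 and 29.1 in control leaves. The droughted arrays again lay above all controls, but the stages stood much further apart than for MS. ICL in droughted leaves was 18.6-fold higher at panicle elongation than at tillering, where MS differed 2.97-fold and PXG 3.67-fold between the same stages. The fitted log2 changes of ICL were 3.22 in tillering leaves, 7.22 in panicle elongation leaves and 5.68 in booting leaves, each ± 0.35.

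PXG had 2284, 2308 and 2375 in droughted leaves at tillering, against 57.9, 97.5 and 66.8 in control leaves. At panicle elongation it had 8349, 8318 and 8891 in droughted leaves, against 112, 43.8 and 107 in control leaves. At booting it had 5857, 2985 and 5108 in droughted leaves, against 62.0, 63.3 and 72.0 in control leaves. The 3 droughted arrays at panicle elongation were among the brightest readings of the whole array, with 99.9% or more of the rice probe sets below them. The fitted log2 changes of PXG were 5.01 in tillering leaves, 6.72 in panicle elongation leaves and 6.09 in booting leaves, each ± 0.32.

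**Figure D1:**
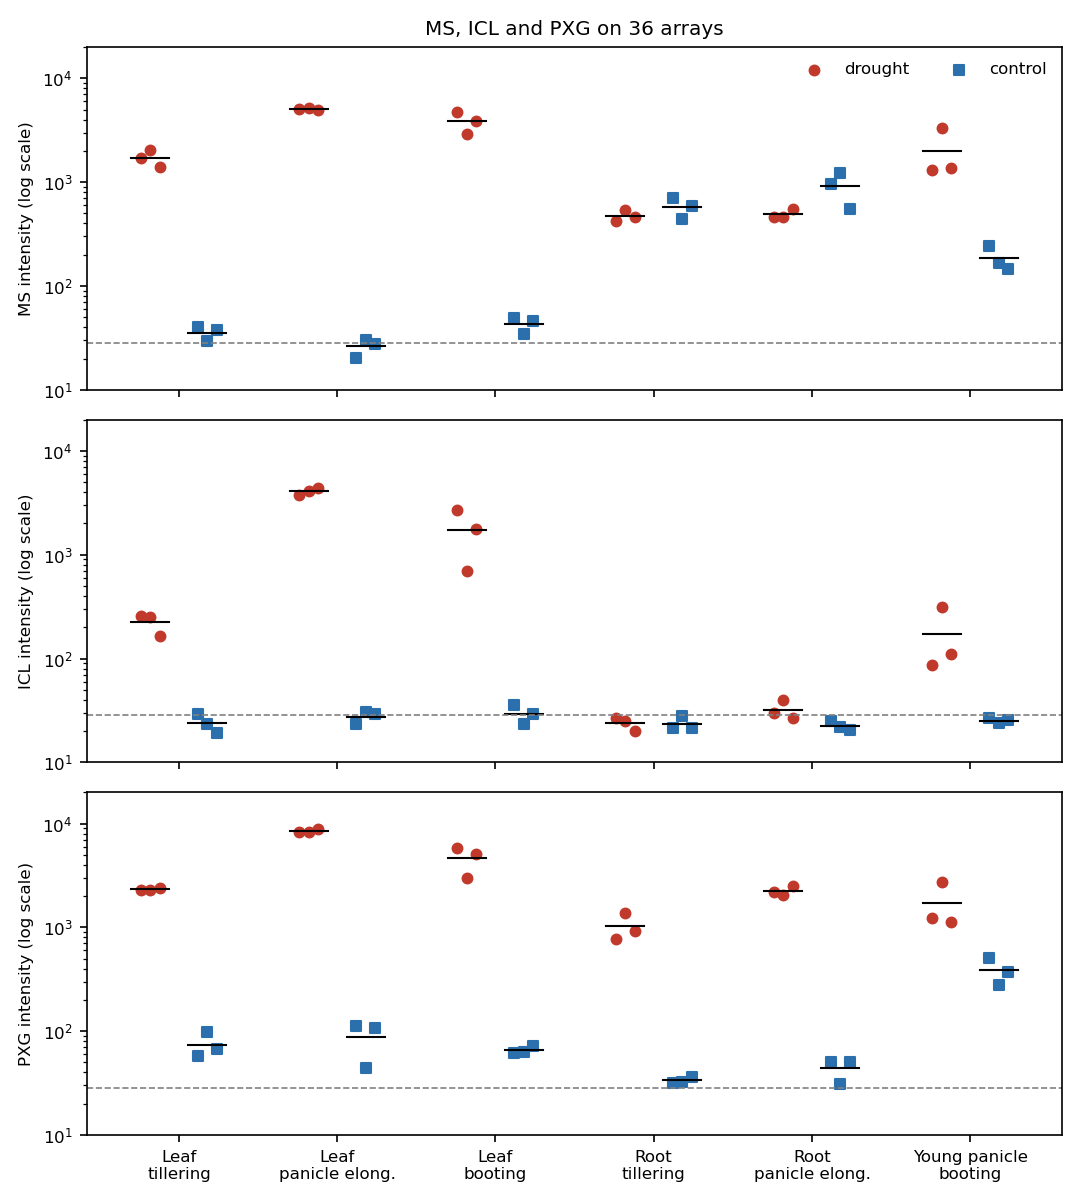
Intensity of MS, ICL and PXG on each of the 36 arrays (log scale), by tissue and stage, with droughted arrays as red circles to the left of control arrays as blue squares, a bar at each group mean and a dashed line at the lowest quartile of all values (28.3). In droughted roots PXG sits at 767 to 2513, while ICL stays near the dashed line and MS sits at 424 to 557.

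In what follows, a probe set is called when its Benjamini-Hochberg adjusted p over all rice probe sets was under 0.05 and its change was 5-fold or more. Of all rice probe sets, 0.639% were called higher in droughted tillering leaves, 2.62% in those of panicle elongation and 1.22% in those of booting. These contrasts chose the 3 genes, and nothing is read from their share here.

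Within leaves the 3 genes kept the same order of stages under drought, with panicle elongation highest, booting next and tillering lowest. The droughted arrays of different stages overlapped in none of the 3 genes. Replicates were closest at panicle elongation, where the coefficient of variation among the droughted arrays was 2.37% for MS, 6.99% for ICL and 3.78% for PXG. At booting it was 23.5% for MS, 58.2% for ICL and 32.0% for PXG, and in each gene replicate 1 was the highest droughted leaf and replicate 2 the lowest. Replicate 2 was also the lowest of the droughted booting leaves at 537 of the 701 probe sets called higher there (76.6%), and its leaf markers summed to 16671, against 10976 in replicate 1 and 15129 in replicate 3. Without that array the log2 changes at booting were 6.65 for MS, 6.23 for ICL and 6.38 for PXG. Control leaves at booting summed to 23794 to 24670 for the same markers, and at tillering the sums were 18704 to 20221 in droughted leaves and 24942 to 25370 in control leaves. The 9 seed and embryo markers on the array summed to 641 to 741 in droughted leaves at tillering and 1152 to 1405 in control leaves. At panicle elongation they summed to 3117 to 4618 in droughted leaves and 1240 to 1780 in control leaves, and at booting to 1068 to 1719 in droughted leaves and 831 to 1077 in control leaves. This list was thus lower in droughted leaves at 1 stage and higher at another, while MS, ICL and PXG were higher at all 3. The paper reports photosynthesis genes lowered by drought in leaves. These sums do not tell a shift in tissue makeup from changed levels of the marker genes themselves. The part of either in the leaf values of MS, ICL and PXG was not tested.

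In droughted roots PXG rose far, while MS and ICL were not called higher. No leaf array enters the means of these contrasts, but the leaf arrays share in the spread behind their SE and p. PXG had 767, 1386 and 922 in droughted roots at tillering, against 31.7, 32.6 and 36.3 in control roots. At panicle elongation it had 2187, 2033 and 2513 in droughted roots, against 50.1, 31.0 and 50.2 in control roots. All droughted roots lay far above all control roots at both stages. PXG rose by a log2 change of 4.89 ± 0.32 at tillering (29.7-fold, limma adjusted p = 1.3e-12) and 5.71 ± 0.32 at panicle elongation (52.3-fold, adjusted p = 3.84e-14). Fitted on the roots of each stage alone, the limma adjusted p of PXG was 1.07e-05 and 1.27e-05. It was the 1 gene of the 3 called higher in roots, where 0.744% of all rice probe sets were called higher at tillering and 1.12% at panicle elongation. The root markers summed to 5873 to 6699 in droughted roots at tillering and 13446 to 18620 in control roots, and at panicle elongation to 6311 to 7008 in droughted roots and 14304 to 19724 in control roots. The seed and embryo markers summed to 765 to 935 in droughted roots at tillering and 832 to 902 in control roots, and at panicle elongation to 1322 to 1433 in droughted roots and 761 to 869 in control roots. The leaf markers summed to 598, 3390 and 396 in droughted roots at tillering and 1560 to 1954 in control roots. Droughted replicate 2, the highest in these markers, was also the highest in PXG. The part of these shifts in the root values of the 3 genes was not tested.

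MS stood well above the array median in roots of watered plants. It had 424, 543 and 463 in droughted roots at tillering, against 704, 438 and 591 in control roots, and these arrays overlapped. At panicle elongation it had 464, 462 and 557 in droughted roots, against 968, 1234 and 554 in control roots. Control replicate 3 lay within the droughted range, and the other 2 lay above it. The log2 change at tillering was -0.26 ± 0.29 (adjusted p = 0.581). At panicle elongation MS fell by 0.82 ± 0.29 (1.77-fold, limma adjusted p = 0.0332), short of the 5-fold minimum, and 15.1% of all rice probe sets were lower there at that adjusted p alone. Fitted on the roots of that stage alone, the same fall had an adjusted p of 0.0850. Without control replicate 2 it was 0.57 with an adjusted p of 0.198, and without control replicate 1, droughted replicate 1 or droughted replicate 2 the adjusted p was 0.104, 0.0903 and 0.0892.

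The control roots at panicle elongation also differed in leaf markers, which summed to 210 in replicate 1, 1986 in replicate 2 and 7072 in replicate 3, against 146 to 166 in the droughted roots. The control array with the highest leaf markers was thus the one with the lowest MS. Without it the log2 change of MS was -1.15 (adjusted p = 0.00476), and the part of leaf RNA in the value was not tested.

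ICL stayed in the dim range in roots. It had 26.8, 24.9 and 20.2 in droughted roots at tillering, against 21.5, 27.9 and 21.6 in control roots. At panicle elongation it had 29.8, 39.8 and 26.7 in droughted roots, against 24.9, 21.9 and 20.4 in control roots. Only 15.7% to 36.8% of all rice probe sets lay below ICL in droughted roots, and 16.1% to 23.5% in control roots. The log2 changes were 0.02 ± 0.35 at tillering (adjusted p = 0.980) and 0.50 ± 0.35 at panicle elongation (adjusted p = 0.332). At panicle elongation the 3 droughted roots lay above the 3 control roots without passing the test.

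**Figure D2:**
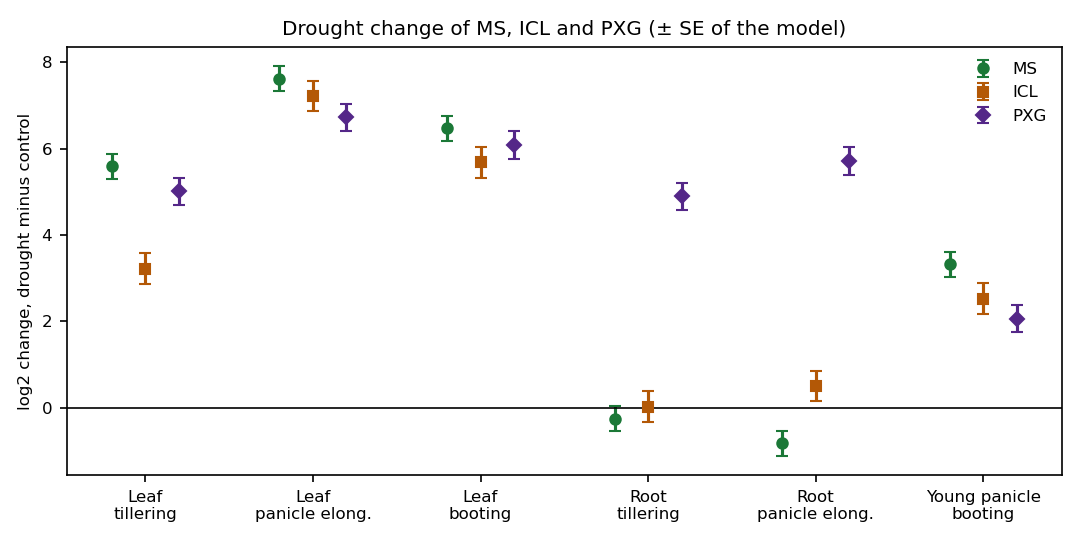
Fitted log2 change of MS, ICL and PXG, drought minus control, in the 6 tissue and stage comparisons, with bars of 1 SE of the model. The 3 genes lie between 3.22 and 7.61 in leaves, but in roots only PXG is far from 0, at 4.89 and 5.71.

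PXG in droughted roots differed between the stages. These roots had 2.25-fold more PXG at panicle elongation than at tillering (log2 1.17 ± 0.32, limma adjusted p = 0.0102), with no overlap between the arrays, and 9.97% of all rice probe sets were higher there at that adjusted p. The difference no longer passed without droughted tillering root replicate 1 (0.98, adjusted p = 0.0700). In control roots the same stage difference was 0.35 ± 0.32 (adjusted p = 0.713). The difference between the 2 drought changes of PXG in roots was 0.82 ± 0.46 and did not pass the test (adjusted p = 0.334), so a stage effect on the drought response itself was not shown. For MS the stage difference was 0.05 ± 0.29 in droughted roots (adjusted p = 0.934) and 0.62 ± 0.29 in control roots (adjusted p = 0.344). For ICL it was 0.41 ± 0.35 in droughted roots (adjusted p = 0.488) and -0.07 ± 0.35 in control roots (adjusted p = 0.962). The drought changes in roots differed between stages by -0.57 ± 0.41 for MS (adjusted p = 0.495) and by 0.48 ± 0.50 for ICL (adjusted p = 0.674).

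In young panicles all 3 genes were higher under drought. MS had 1299, 3311 and 1377 in droughted panicles, against 241, 168 and 146 in control panicles. ICL had 87.4, 315 and 111 in droughted panicles, against 26.6, 23.8 and 25.6 in control panicles. PXG had 1242, 2734 and 1133 in droughted panicles, against 510, 280 and 371 in control panicles. The groups overlapped in none of them.

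In limma, MS rose by a log2 change of 3.32 ± 0.29 in young panicles (limma adjusted p = 3.56e-10). ICL rose by 2.52 ± 0.35 (5.73-fold, adjusted p = 1.85e-06). Control panicles averaged 25.3 for ICL, below the lowest quartile of all values (28.3), so the size of this rise rests on a dim control. With the floor at the lowest quartile it was 2.36. PXG rose by 2.06 ± 0.32 (4.17-fold, adjusted p = 9.18e-06), under the 5-fold minimum, which 11.6% of all rice probe sets did at that adjusted p alone. MS and ICL were thus called higher, in a comparison where 0.648% of all rice probe sets were. Fitted on the young panicles alone, the limma adjusted p was 0.000243 for MS, 0.00207 for ICL and 0.00238 for PXG.

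Replicate 2 was the highest droughted panicle for MS, ICL and PXG, and also for 322 of the 371 probe sets called higher in young panicles (86.8%). Without it the log2 changes were 2.89 for MS (adjusted p = 3.46e-09), 1.96 for ICL (adjusted p = 3.17e-05) and 1.66 for PXG (adjusted p = 0.000256), all from limma, and that of ICL was then under 5-fold. The young panicle markers summed to 23326 to 25464 in droughted panicles and 24339 to 27916 in control panicles. The 5 anther markers summed to 11203 to 12691 in droughted panicles and 13143 to 14866 in control panicles. The leaf markers summed to 9118 to 11077 in droughted panicles and 12465 to 14001 in control panicles. The seed and embryo markers summed to 729, 1038 and 746 in droughted panicles and 502, 467 and 457 in control panicles, with no overlap and with droughted replicate 2 again the highest. The part of tissue makeup in the panicle values was not tested.

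**Figure D3:**
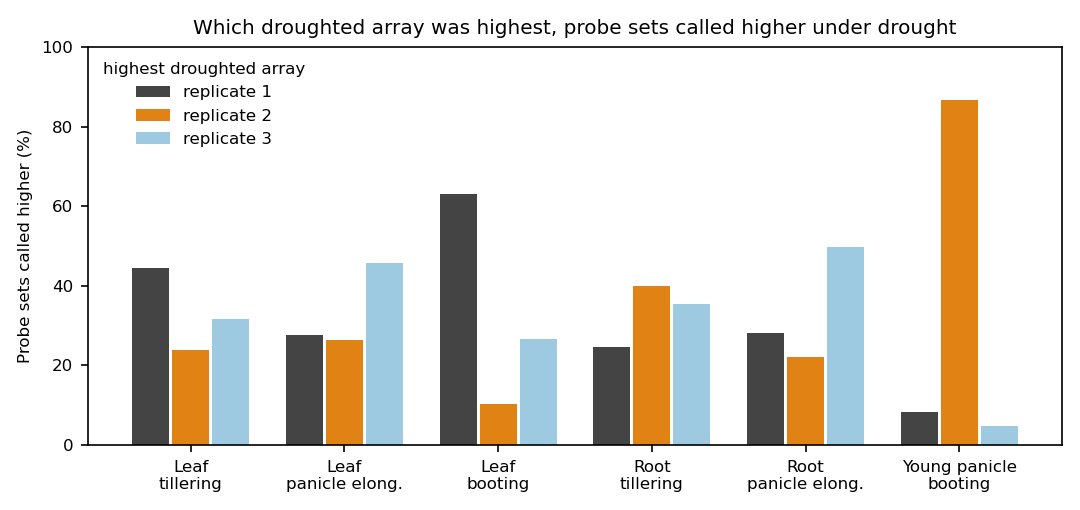
Share of probe sets called higher under drought (%) whose highest droughted reading was in replicate 1, 2 or 3, for each tissue and stage. In young panicles replicate 2 holds 86.8% of them and in booting leaves replicate 1 holds 63.1%, and these are the arrays where MS, ICL and PXG are highest.

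Over all 12 groups the order of levels was led by droughted leaves in every gene. For MS it ran from droughted leaves at panicle elongation (5055 ± 120, SD, n = 3) through droughted leaves at booting (3850 ± 905), droughted young panicles (1996 ± 1140) and droughted leaves at tillering (1722 ± 326) to the 4 root groups (477 to 918), control panicles (185 ± 49.4) and control leaves (26.2 to 43.3). Neighbours in that order overlapped within the 4 root groups and also among droughted booting leaves, young panicles and tillering leaves. Every root array exceeded every control panicle and control leaf array. MS in control leaves at panicle elongation averaged below the lowest quartile of all values (28.3), so the size of its change there rests on a dim control. With the floor at the lowest quartile that log2 change was 7.44.

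For ICL the order was droughted leaves at panicle elongation (4100 ± 287), at booting (1711 ± 997) and at tillering (224 ± 51.1), then droughted panicles (171 ± 125), which overlapped with tillering leaves. The 8 remaining groups, 2 of droughted roots and 6 of controls, averaged 22.4 to 32.1 and each overlapped with its neighbour. For PXG droughted leaves at panicle elongation (8520 ± 322) and booting (4650 ± 1490) led, followed by droughted leaves at tillering (2322 ± 47.1), droughted roots at panicle elongation (2245 ± 245), droughted panicles (1703 ± 894) and droughted roots at tillering (1025 ± 322), of which each overlapped with its neighbour. Below them all stood the controls, with control panicles (387 ± 116) apart from control leaves (65.8 to 87.7) and control roots (33.5 to 43.8).

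The drought changes of leaves and roots set PXG apart from the other 2, as a description, since the leaf arrays chose the genes. At panicle elongation the change in leaves exceeded that in roots by a log2 difference of 8.44 for MS, 6.72 for ICL and 1.01 for PXG. At tillering it exceeded it by 5.85 for MS, 3.20 for ICL and 0.12 for PXG. At booting, where leaves and young panicles were compared, the change in leaves was larger by 3.14 for MS, 3.16 for ICL and 4.03 for PXG.

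The 3 genes were also set against each other across arrays, as a description. Across the 18 leaf arrays the log2 intensities correlated at r = 0.95 between MS and ICL, 0.99 between MS and PXG and 0.96 between ICL and PXG. All 3 were chosen as high in droughted leaves, so a high r across these arrays was fixed by that choice. Across the 6 panicle arrays r was 0.98 for all 3 pairs. There each gene was higher on every droughted array and highest on droughted replicate 2, so this r adds nothing to those values. Across the 12 root arrays it was -0.39 between MS and ICL, -0.56 between MS and PXG and 0.54 between ICL and PXG. Over the 12 group means the 3 pairs had r of 0.73, 0.72 and 0.77 for the pairs in that order, and between 367 and 698 other probe sets followed a gene of the 3 more closely than another of the 3 did.

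**Figure D4:**
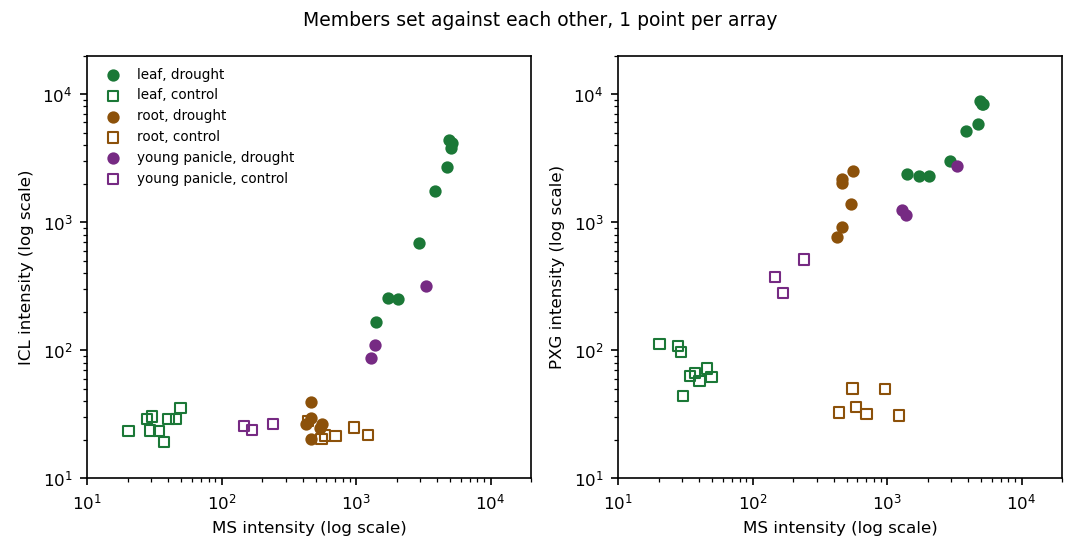
Intensity of ICL (left) and PXG (right) against that of MS, 1 point per array, both axes on a log scale, with droughted arrays filled and control arrays open and the tissues in colour. Leaf and panicle arrays with high MS also have high ICL and PXG, and root arrays form a block where MS varies between 424 and 1234, ICL between 20.2 and 39.8, and PXG is split by drought.

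The genes of most alike pattern were taken among 14560 probe sets whose 12 group means spanned 5-fold or more, as the 10 of highest correlation with each gene. For MS the named ones were SMR1 (r = 0.94), the alpha-amylase AMY1.5 (0.93), which degrades starch, and Alpha-ETF (0.92). The last is a subunit of the electron transfer flavoprotein, which passes electrons from amino acid breakdown to the mitochondrial chain. Alpha-ETF changed under drought by a log2 of 3.07 in leaves at panicle elongation and 1.47 in young panicles, against 0.35 and 0.54 in roots at tillering and panicle elongation. AMY1.5 changed by 3.29 in leaves at panicle elongation, by 0.27 in young panicles, and by -0.75 and -0.76 in the roots of those 2 stages. The study's tables describe 4 more among the 10, a putative auxin hydrogen symporter (Os09g31478, r = 0.95), a sulfate transporter (Os01g0719300, 0.93) and 2 transcription factors of the NAC family (0.93 and 0.92).

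For ICL no probe set of the 10 carried a gene symbol. Those described in the study's tables were a transcription factor of the MYB family (r = 0.96), a cupin family protein (Os03g0654700, r = 0.97), which changed by 2.97, 4.69 and 4.31 in leaves at the 3 stages in order, and a protein of unknown function (Os10g0471000, 0.96). For PXG the named ones were PP2C51 and PP2C59 (r = 0.97 each), phosphatases of the family that restrains abscisic acid signalling, and the study's tables add a transcription factor of the bHLH family (0.96). PP2C59 changed by 4.58, 5.84 and 5.34 in leaves at these stages, by 4.89 and 5.45 in roots and by 4.22 in young panicles. PP2C51 changed by 4.03, 6.83 and 5.44 in leaves, by 3.38 and 4.61 in roots and by 2.44 in young panicles.

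The surrounding pathways were read from 60 other genes on the array in 8 lists, matched by symbol, of 74 listed in the reference. In droughted leaves at panicle elongation 6 of the 60 were called higher and 10 lower, where 4.84% of all genes, read with 1 probe set each, were called higher and 6.66% lower. In leaves the counts were 0 higher and 1 lower at tillering (background 1.28% and 1.76%) and 1 higher and 0 lower at booting (2.47% and 1.2%). In roots they were 1 higher and 4 lower at tillering (1.33% and 2.61%) and 1 higher and 6 lower at panicle elongation (1.99% and 1.76%). In young panicles none was called in either direction (1.25% and 2.19%). With a 2-fold minimum in the same limma test 4 were higher and 12 lower, where 2414 and 3505 of all 57258 rice probe sets were. A 2-fold share with 1 probe set per gene was not computed, so nothing is read from these 2 counts. The median log2 change of the 60 was -0.12 in leaves at panicle elongation, against -0.15 over all genes, and -0.30 in young panicles, against -0.09.

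Of the citrate cycle, the array held 8 succinate dehydrogenase genes, which act on the succinate that ICL releases, and none was called in any of the 6 comparisons. Their median log2 change was 0.22 in leaves at panicle elongation, against the 7.22 of ICL and the 7.61 of MS there. At that stage the 8 ranged from -1.73 for SDH7 to 1.02 for SDH2-1. SDH7 averaged 929 ± 1195 (SD, n = 3) in these droughted leaves and 1690 ± 149 in control leaves, so its droughted replicates varied widely. Other citrate cycle enzymes were not matched by symbol.

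Beta-oxidation supplies the acetyl-CoA that MS uses. Of 4 genes of fatty acid activation and beta-oxidation, MFP, the multifunctional protein of the peroxisome that carries out several steps of the spiral, was called higher in droughted leaves at panicle elongation. MFP averaged 6210 ± 238 in droughted leaves at panicle elongation and 1062 ± 131 in control leaves (SD, n = 3), a log2 change of 2.55 ± 0.15 (limma adjusted p = 2.74e-14). Its changes were 0.81 in leaves at tillering and 1.81 at booting, both past the adjusted p but under 5-fold. In roots MFP changed by -0.69 at tillering and 0.04 at panicle elongation, and by 0.07 in young panicles, where MS and ICL rose. 4CLL7, an acyl-activating enzyme related to 4-coumarate-CoA ligase, was called lower in leaves, by -2.36 at tillering and -4.99 at panicle elongation. The call at tillering was lost with quantile normalization, with median centring, and without control replicate 1, control replicate 2 or droughted replicate 2. 4CLL1 of the same family changed by 2.13 at panicle elongation, under 5-fold. Besides MFP the list held only genes of this family on the array, so other enzymes of beta-oxidation were not read.

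Malate made by MS can feed gluconeogenesis. The 4 genes of this list held no phosphoenolpyruvate carboxykinase, as none was matched by symbol. CFBP1 and FBPase, fructose-1,6-bisphosphatases, were called lower in droughted leaves at panicle elongation, by -3.53 and -4.23. CFBP1 averaged 205 ± 51.5 in these droughted leaves and 2836 ± 2315 in control leaves, where replicates varied widely. FBPase averaged 4196 in control leaves and 68.9 in control roots at panicle elongation, and whether its fall in leaves bears on gluconeogenesis was not tested. In roots CFBP1 was called higher, by 3.24 at tillering and 3.19 at panicle elongation. PPDK2, a pyruvate phosphate dikinase that remakes phosphoenolpyruvate from pyruvate, was called lower in roots, by -4.47 and -3.54 at these stages.

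Peroxisome genes moved in both directions. PEX11-4, of a family that drives the division of peroxisomes, was called lower in droughted leaves at panicle elongation (-3.80). PEX11-5 changed by 1.94 there, and PEX11-1 by 2.16 and 2.31 in the roots at tillering and panicle elongation, all 3 past the adjusted p and under 5-fold. The catalase CATA, which removes peroxide in peroxisomes, was called lower in leaves at panicle elongation (-3.90). CATB, another catalase, averaged 6556 ± 223 there under drought and 1324 ± 98.4 in control leaves (2.31, limma adjusted p = 1.38e-16), a rise just under 5-fold. The 7 autophagy genes gave no call in any comparison.

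PXG and the lipoxygenase pathway both draw on fatty acid hydroperoxides, and 18 genes of that pathway were on the array. In droughted leaves at panicle elongation the allene oxide synthase AOS3 (7.39), the lipoxygenases CM-LOX1 (4.59) and LOX5 (2.94) and the oxophytodienoate reductase OPR1 (2.35) were called higher, and AOS1 (-3.51) and the allene oxide cyclase AOC3 (-2.60) lower. AOS3 averaged 1830 ± 80.6 in these droughted leaves and 11.1 ± 3.0 in control leaves. CM-LOX1 was also called higher in leaves at booting (2.38), a call lost with the floor at the lowest quartile, with the methods' t-test, and without control replicate 2 or droughted replicate 1. In roots, where PXG rose, the calls of this list were all lower, LOX3 by -2.50 at tillering and -2.37 at panicle elongation, LOX1.1 by -2.81 and -3.13, and at panicle elongation CM-LOX1 by -2.45 and CM-LOX2 by -2.34. In droughted roots at panicle elongation CM-LOX1 averaged 6.66 and CM-LOX2 21.5, against 38.2 and 105 in control roots. Both droughted means were below the lowest quartile of all values (28.3). LOX3 averaged 28.7 in those droughted roots and 27.3 in those of tillering. The size of these falls therefore rests on dim droughted arrays. With the floor at the lowest quartile 3 genes were called lower in roots at panicle elongation over all lists, against 6. PXG was the 1 caleosin or oleosin of the lists on the array.

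Photorespiration also makes glyoxylate in leaf peroxisomes, through glycolate oxidase. Of 7 genes, the glycolate oxidase GLO3 was called higher in droughted leaves at panicle elongation (2.72) and GLO4 lower (-2.59). GLO1 and GLO5, brighter in control leaves (9847 and 6654, against 243 for GLO3), changed by -0.99 and -1.36 there. Both passed the adjusted p and stayed under 5-fold. GDCSH, the H subunit of glycine decarboxylase, had 41.2 ± 9.93 in these droughted leaves and 6226 ± 109 in control leaves (-7.27). The chloroplast glutamine synthetase GLN2 was called lower there (-3.02) and in roots at tillering (-2.89) and panicle elongation (-2.45).

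**Figure D5:**
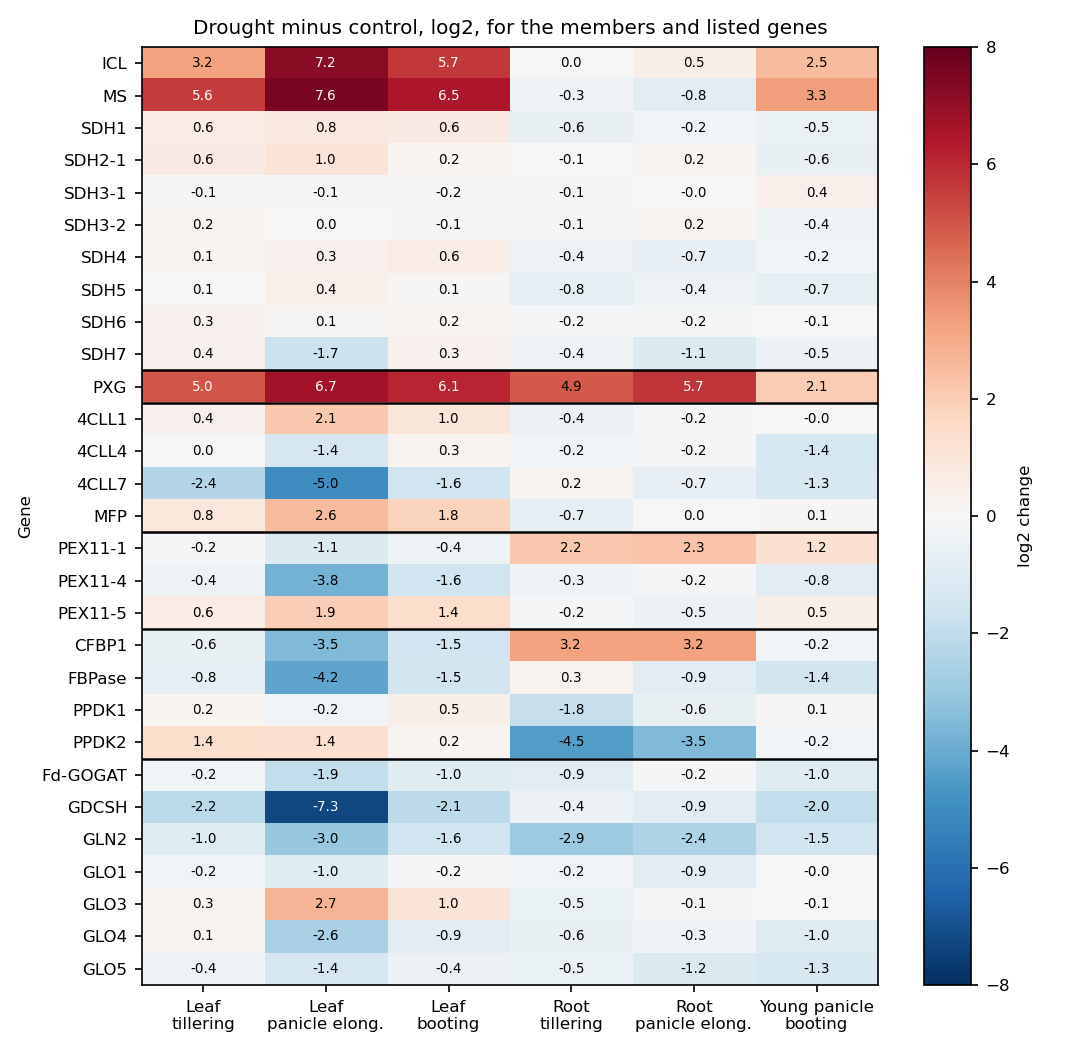
Log2 change, drought minus control, of MS, ICL, PXG and listed genes (rows, with lines between the lists) in 6 tissue and stage comparisons (columns), red for higher and blue for lower under drought. The succinate dehydrogenase rows lie between -1.73 (SDH7, whose replicates varied widely) and 1.02, below ICL and MS in the leaf and panicle columns. In the root columns MS (-0.26 and -0.82) lies among them. ICL there (0.02 and 0.50) lies above the highest of them (-0.06 and 0.18).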

How the data were processed

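Leaf, root and young panicle RNA of rice line DK151 was hybridised to 36 rice genome arrays of Affymetrix, with 12 groups of 3 taken from the labels. Per the methods, GCOS1.4 turned the images into CEL files, which were normalized by the invariant-set method of dChip, whose version and use of mismatch probes are not given in the sources used here. The deposited table holds a linear intensity for each probe set on each array. Absolute precision is limited by the 3 arrays in each group. The p-values measure the spread between individual plants pooled over all 12 groups, leaf groups included, and not that of the compared groups alone.

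The 936 values below 1 were raised to 1 before the log2 was taken, after leaving out 123 control probe sets, which left 57258. The tests used limma 3.58.1 (lmFit, eBayes) in R 4.3.3, on a single fit of 12 group means, 24 residual and 3.76 prior degrees of freedom, with Benjamini-Hochberg adjustment over all rice probe sets. The exact permutation test of 3 against 3 arrays cannot go below 0.1 and was not used. The scripts were tested on simulated data.

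Genes were named through the platform annotation and the ASM3414082v1 reference table, which pairs 22436 probe sets with 1 gene, 95 with several and 34727 with none. Names of the form Os03g0654700 come from the study's tables. Lists were matched by symbol, less 7 genes whose names give another enzyme, with the brightest probe set of each gene. The rule for named genes took MS, ICL and PXG, the named probe sets among the 10 most alike to each, and from each list and comparison the called genes of largest rise and fall. Other list members were named after their values were seen. The 3 genes, the lists and the tests were chosen with earlier results of these data known.

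To see whether replicate numbers pair arrays, deviations from the group means of same-numbered droughted and control arrays were correlated. In 0 of the 6 comparisons did all 3 pairs pass 0.1. At tillering 2 of 3 pairs passed it in leaves (highest r 0.31) and 2 of 3 in roots (highest r 0.42). The paper describes 3 blocks, which the labels do not name. They also do not say whether 2 tissues of a stage came from the same plants, and the fit treated all arrays as independent. The alternatives were a floor at the lowest quartile, quantile normalization, median centring, each comparison fitted alone, an intensity trend, the replicate number as a block, a filter on dim probe sets, no probe sets that may bind several transcripts, a 2-fold minimum, linear means, medians, the methods' t-test, all probe sets of a listed gene and each array left out in turn.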

Additional observations from a re-analysis of the deposited data

How the results depend on the processing

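The leaf values of MS, ICL and PXG kept their direction under every alternative run, and their rises in young panicles and that of PXG in roots kept their side of the adjusted p. That of ICL in young panicles was under 5-fold as a difference of medians (2.11) and ran from 1.96 to 2.88 with 1 array left out. The fall of MS in roots at panicle elongation (-0.82) had an adjusted p of 0.0850 fitted alone and 0.0569 with the replicate block, at the same -0.82, and ran from -1.15 to -0.57 with 1 array left out. The stage difference of PXG in droughted roots ran from 0.98 to 1.41 with 1 array left out. Near 0, the change of ICL in roots at tillering was 0 with the floor at the lowest quartile and -0.067 to 0.144 with 1 array left out. The stage difference of ICL in control roots was 0 with that floor and -0.153 to 0.052 with 1 array left out, and that of MS in droughted roots was -0.035 to 0.152. The replicate block changed no other call, and it could not be fitted for the stage differences within droughted or within control roots.

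Of the listed genes, with a 2-fold minimum 7 were higher and 2 lower in leaves at tillering, 13 and 22 at panicle elongation, 8 and 8 at booting, 3 and 10 in tillering roots, 3 and 10 in those of panicle elongation, and 4 and 12 in young panicles. Quantile normalization gave 0 lower in leaves at tillering and, in roots, 3 higher in the first stage and 2 in the second. Median centring gave 0 lower in leaves at tillering and 2 higher in roots at panicle elongation. All probe sets of the listed genes gave 3 lower in leaves at tillering, 16 lower at panicle elongation and 2 higher in roots at panicle elongation. Without probe sets that may bind several transcripts 6 were lower in leaves at panicle elongation. The floor gave 0 higher in leaves at booting and 3 lower in roots at panicle elongation, and the methods' t-test, before and after Benjamini-Hochberg, gave 0 higher in leaves at booting. With 1 array left out, 0 to 1 were higher and 0 to 1 lower in leaves at tillering, 0 to 2 higher and 0 to 1 lower at booting, and 1 to 2 higher in roots at either stage. The 2-fold counts have no share over all genes with 1 probe set each beside them, so nothing is read from them. The causes were not tested.

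Over all rice probe sets, a 2-fold minimum gave 3027 higher and 4841 lower in leaves at tillering, 4918 and 7835 at panicle elongation, 3533 and 3226 at booting, 2303 and 3635 in tillering roots, 2644 and 3170 in those of panicle elongation, and 2414 and 3505 in young panicles. The methods' t-test after Benjamini-Hochberg gave 349 lower in roots at panicle elongation, against 553. Of the 10 probe sets most alike to each gene, 6 of those of MS and ICL and 7 of those of PXG stayed among the 10 with a 2-fold span, and 8, 8 and 7 over single arrays. ICL lay near the dim end of the arrays in all control groups and in droughted roots, so small changes there could not be resolved.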
